A study of Mus musculus with 10 samples.

Results

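The nuclear genes of oxidative phosphorylation were examined in F123 mouse embryonic stem cells through their H3K4me3 and ATAC-seq peaks. The genes were the protein-coding GENCODE M21 gene records on chromosomes 1 to 19 of mm10 whose symbols start with Ndufa, Ndufb, Ndufc, Ndufs, Ndufv, Uqcr, Cox4i, Cox5, Cox6, Cox7, Cox8 or Atp5, together with Sdha, Sdhb, Sdhc and Sdhd. This rule took 91 records (90 symbols, since Atp5o has 2 records) of 20807, and they lie on 18 chromosomes. Besides 81 records of structural subunits it took in 8 assembly factors of complex I (the Ndufaf genes), the supercomplex factor Cox7a2l and the coupling factor Atp5s.

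F123 is a hybrid line from Mus musculus castaneus and S129/SvJae mice, which the study kept on irradiated fibroblast feeder cells and passaged once without feeders before harvest. All samples are of this 1 untreated line, with no second condition. H3K4me3 ChIP-seq used 2000000 cells and ATAC-seq 100000 cells, each in 2 biological replicates. Each assay has 1 peak list for both replicates (33487 H3K4me3 peaks and 179109 ATAC-seq peaks), so no value below has a spread between replicates, no condition was compared and no test was made, and the depth of the libraries is unknown.

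Oxidative phosphorylation is run by 5 complexes of the inner mitochondrial membrane. Complexes I to IV pass electrons from NADH and succinate to oxygen, complexes I, III and IV pump protons as they do so, and complex V, the ATP synthase, uses the returning protons to make ATP. Most subunits are needed in every respiring cell, while some subunits of complex IV (cytochrome c oxidase) have a second gene that is used mainly in muscle, testis or lung or in low oxygen. H3K4me3 is a histone mark of active and poised promoters, most of all those rich in CpG, and ATAC-seq finds DNA that the transposase Tn5 can reach.

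The DNA just before the starts of isoform genes is shown in 7 stretches, with each CpG in capitals, because CpG-rich promoters are those that usually carry H3K4me3. The letters are the RefSeq GRCm38.p6 reference, 5′ to 3′ on the strand of the gene, from up to 250 bases before the RefSeq start and without any annotated exon, and the alleles of the hybrid line may differ from them. Cox6b1 (chr7:30626152-30626364, minus strand) and its testis form Cox6b2 (chr7:4753095-4753225, minus strand) encode the subunit that joins the 2 monomers of cytochrome c oxidase. They hold 10 CpG in 213 bases and 7 CpG in 131 bases. The lengths differ because 37 exon bases were left out at Cox6b1 and 119 at Cox6b2, so these 2 counts cannot be compared directly.
Cox6b1: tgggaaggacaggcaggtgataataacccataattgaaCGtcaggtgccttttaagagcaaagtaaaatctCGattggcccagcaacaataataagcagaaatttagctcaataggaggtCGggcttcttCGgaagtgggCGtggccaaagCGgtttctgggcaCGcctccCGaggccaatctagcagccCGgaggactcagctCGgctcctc
Cox6b2: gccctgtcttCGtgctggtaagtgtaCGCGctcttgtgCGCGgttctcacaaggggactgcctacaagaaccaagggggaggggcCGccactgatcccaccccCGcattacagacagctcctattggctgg

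Cox7a2 (chr9:79759879-79760103, minus strand) and its heart and skeletal muscle form Cox7a1 (chr7:30183921-30184143, plus strand) hold 12 CpG in 225 bases and 3 CpG in 223 bases.
Cox7a2: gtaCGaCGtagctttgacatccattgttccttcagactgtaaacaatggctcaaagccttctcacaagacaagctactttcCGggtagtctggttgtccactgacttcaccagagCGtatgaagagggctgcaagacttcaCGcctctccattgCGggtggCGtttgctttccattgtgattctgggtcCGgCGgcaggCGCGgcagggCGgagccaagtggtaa
Cox7a1: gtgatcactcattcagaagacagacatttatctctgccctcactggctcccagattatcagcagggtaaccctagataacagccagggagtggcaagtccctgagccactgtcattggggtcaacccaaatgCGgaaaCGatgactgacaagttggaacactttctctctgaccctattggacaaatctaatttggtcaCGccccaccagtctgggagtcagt

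Cox8a (chr19:7217617-7217866, minus strand) and its heart and skeletal muscle form Cox8b (chr7:140900447-140900696, minus strand) hold 11 and 1 CpG, each in 250 bases.
Cox8a: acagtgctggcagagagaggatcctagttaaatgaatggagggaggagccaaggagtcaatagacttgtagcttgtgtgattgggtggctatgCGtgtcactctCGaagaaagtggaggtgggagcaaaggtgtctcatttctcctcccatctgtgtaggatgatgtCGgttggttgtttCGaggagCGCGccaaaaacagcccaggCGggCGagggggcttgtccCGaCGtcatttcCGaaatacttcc
Cox8b: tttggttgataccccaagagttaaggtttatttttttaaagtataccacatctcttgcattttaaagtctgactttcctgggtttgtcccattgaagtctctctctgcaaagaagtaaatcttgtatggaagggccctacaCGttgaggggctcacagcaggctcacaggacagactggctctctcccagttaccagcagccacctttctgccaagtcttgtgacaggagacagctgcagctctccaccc

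The testis gene Cox7b2 (chr5:71548206-71548455, minus strand), whose broadly used counterpart Cox7b is X-linked, holds 9 CpG in 250 bases.
Cox7b2: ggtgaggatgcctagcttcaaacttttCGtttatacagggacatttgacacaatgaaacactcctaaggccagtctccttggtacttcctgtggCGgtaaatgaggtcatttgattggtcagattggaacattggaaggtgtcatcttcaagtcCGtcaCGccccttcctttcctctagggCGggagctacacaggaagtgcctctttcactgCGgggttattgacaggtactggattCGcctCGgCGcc

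Nearly all oxidative phosphorylation genes carried both kinds of peak at their starts. A gene was counted when a peak shared at least 1 bp with the window of 1 kb on either side of its start, the 5′ end of the GENCODE record. An H3K4me3 peak was found at 86 of the 91 genes (94.5%, 95% Wilson interval 87.8 to 97.6%), against 66.4% of all protein-coding genes. An ATAC-seq peak was found at 87 (95.6%, interval 89.2 to 98.3%), against 72.2% of all. Both were found at 86 genes, against 65.6% of all, and neither at 4 genes, against 27% of all. The intervals cover counting error only. No H3K4me3 peak was shared by the starts of 2 of these genes.

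The strength of a peak is given as its fold enrichment, the ratio of ChIP signal to what the peak caller took as background, and where a gene had more than 1 H3K4me3 peak the strongest was used. The median over the 86 genes was 36.6 (order-statistic 95% interval 34.2 to 38.4), with an interquartile range of 31.6 to 41.6. The interval of the median treats the genes as independent draws and does not cover variation between replicates. Over all 13806 genes with a peak the median was 31.0 and the interquartile range 20.6 to 40.5. Of the 86 genes, 66 were above the median of all genes, 8 were at or above its 90th percentile and 3 at or below its 10th percentile. The interquartile range was thus narrower than that of genes at large, and the 3 lowest were Cox8c, Ndufa4l2 and Cox4i2, all tissue-restricted isoforms of complex IV.

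**Figure D1:**
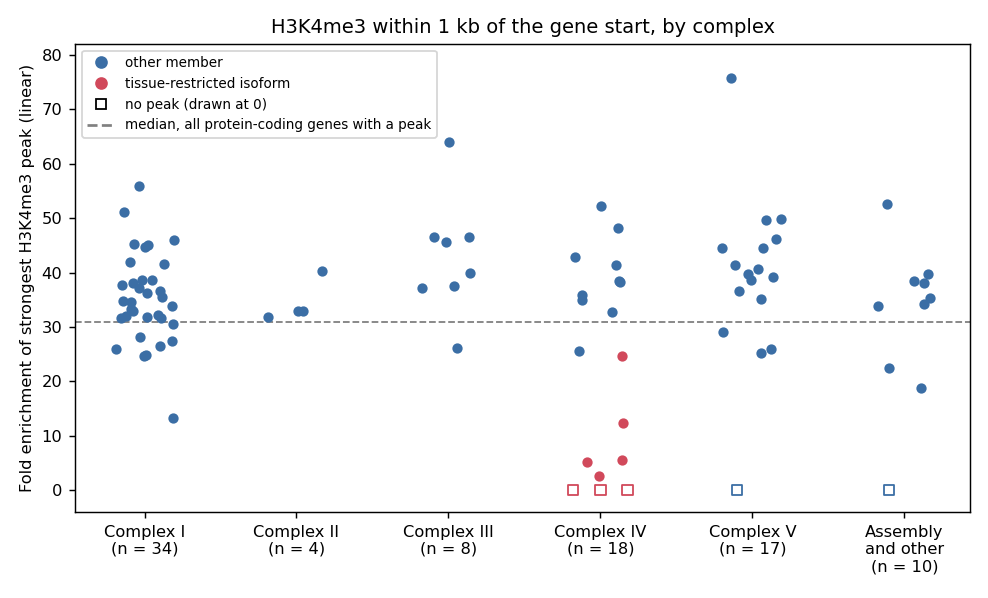
Fold enrichment (linear axis) of the strongest H3K4me3 peak within 1 kb of the start of each gene, by complex. Filled points are genes with a peak, open squares genes with no peak drawn at 0, red marks the 8 tissue-restricted isoforms and the dashed line is the median of all protein-coding genes with a peak (31.0). The red points sit between 2.68 and 24.7, below every other gene of complex IV with a peak.

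Complex I takes electrons from NADH. Its 34 subunit genes all had both kinds of peak, with a median fold enrichment of 34.7 and a highest value of 56.0, and 26 of them were above the median of all genes. The 7 core subunits, which carry the flavin and the iron-sulphur clusters or the quinone site, had a median of 31.6, and the 27 accessory subunits had 35.4. Among the core subunits Ndufs1 had a fold enrichment of 46.1. Ndufv2 had 38.7, Ndufs3 32.2, Ndufv1 (the flavin-binding subunit) 31.6, Ndufs7 30.6 and Ndufs8 24.9. Of the accessory subunits, Ndufa6 had the highest value (56.0) and Ndufs6 had 51.2, at percentiles 96.4 and 92.7 of all genes with a peak.

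The 8 assembly factors of complex I, which help build the complex without staying in it, all had both peaks, with fold enrichments from 18.8 (Ndufaf5) to 52.5 (Ndufaf6) and a median of 36.1. Complex II, succinate dehydrogenase, is the one complex encoded wholly in the nucleus. Its 4 genes lay close together: the flavoprotein Sdha had a fold enrichment of 32.9, the iron-sulphur subunit Sdhb 40.3, and the membrane anchors Sdhc and Sdhd 31.8 and 33.0. All 4 were above the median of all genes.

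Complex III passes electrons from ubiquinol to cytochrome c, and its 8 genes had the highest median of the 5 complexes (42.8, range 26.1 to 64.0). All 8 had both peaks. Uqcrfs1, the Rieske iron-sulphur protein, had a fold enrichment of 46.5, and the 2 core proteins Uqcrc1 and Uqcrc2 had 39.9 and 37.5. Uqcrq, a small subunit that contacts cytochrome b, had 64.0, at percentile 99.2.

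Complex V had H3K4me3 and ATAC-seq peaks at 16 of its 17 records, with a median of 40.2. The exception was the second record of Atp5o, a record that begins at chr16:91926982 inside the first one, where the nearest H3K4me3 peak was 3341 bp away. The first record of Atp5o, which links the catalytic head to the stalk, begins at chr16:91931687 and had a fold enrichment of 44.6. The 5 genes of the F1 head had values from 35.2 to 49.7, with 44.4 for the alpha subunit Atp5a1, 35.2 for the beta subunit Atp5b and 49.7 for the gamma subunit Atp5c1.

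The membrane ring of the synthase is built of subunit c, which 3 genes encode with the same mature protein. Atp5g3 had a fold enrichment of 49.8, and Atp5g1 and Atp5g2 had 25.3 and 25.9, so that 1 of the 3 was above the median of all genes. Atp5h, a stalk subunit (chr11:115418746-115421478), had the highest value of all 86 genes, 75.7 with −log10 q of 1204, at percentile 99.9. Its peak also covers the start of Kctd2, 166 bp away on the opposite strand, and the list does not divide the signal between them.

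Complex IV held both strong and very weak peaks. Of its 18 genes, H3K4me3 marked 15 and ATAC-seq peaks lay at 16. The 10 genes other than tissue-restricted isoforms all had both, with a median fold enrichment of 38.3 and a range of 25.5 to 52.3. Cox5a and Cox5b, nuclear-encoded subunits with no isoform among these genes, had 41.4 and 25.5. The remaining 8 genes were named as tissue-restricted from textbook knowledge, though with earlier results of these data known. They had H3K4me3 at 5 (62.5%) and an ATAC-seq peak at 6 (75.0%), close to the 66.4% and 72.2% of all genes.

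The 6 ubiquitous counterparts all had both peaks, with fold enrichments from 32.7 to 52.3 (median 37.1). The 5 tissue-restricted isoforms with a peak ranged from 2.68 to 24.7 (median 5.57), and the ranges of these 5 and 6 genes did not overlap. Low values were not particular to the isoforms. Of all genes with a peak, 33.6% were weaker than the highest of the 5, and Ndufaf5 and Ndufaf4 had 18.8 and 22.4. The median width of the peak was 1216 bp over the 5 and 2482 bp over the 6. None of the 8 had another coding start within 1 kb, while 2 of the 6 counterparts did. These 2, Cox4i1 and Ndufa4, had the widest (3300 and 3223 bp) and strongest peaks of the 6, and the peaks cover those other starts.

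**Figure D2:**
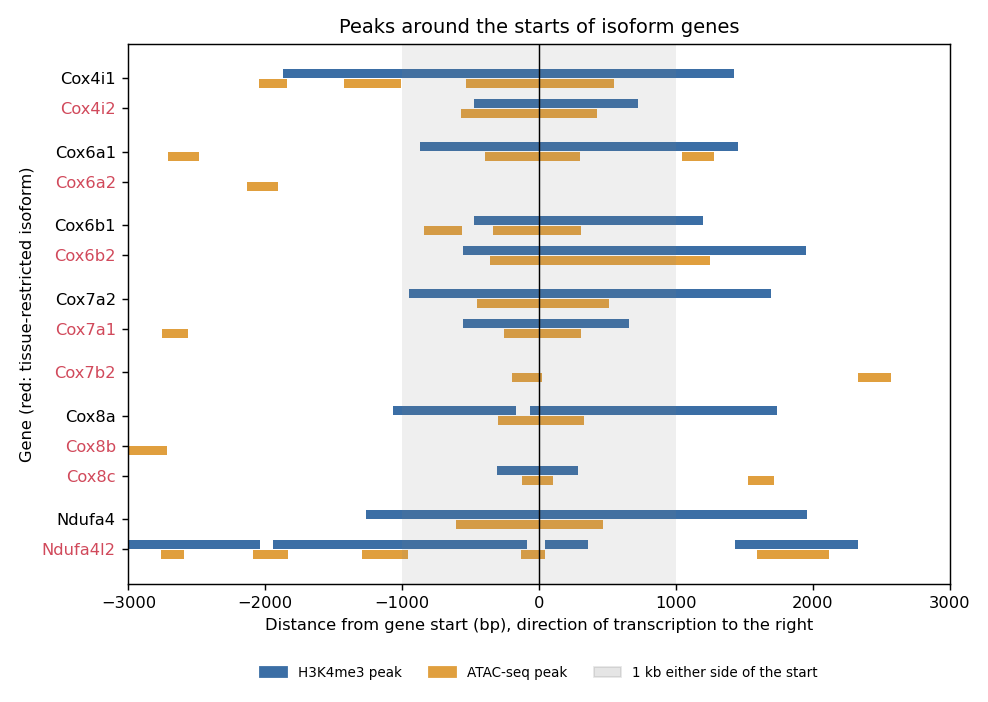
H3K4me3 peaks (blue) and ATAC-seq peaks (orange) within 3000 bp of the starts of the isoform genes, as distance in bp from the start with transcription to the right, and the window of 1 kb on either side in grey. Red names are tissue-restricted isoforms and each follows its ubiquitous counterpart, apart from Cox7b2. Cox6a2 and Cox8b have no peak in the grey window, and Cox7b2 has an ATAC-seq peak alone.

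The muscle isoforms fell on both sides of detection. Cox6a2 (chr7, start 128206387, minus strand) had neither peak, with the nearest H3K4me3 peak 30457 bp and the nearest ATAC-seq peak 1908 bp away. Its counterpart Cox6a1 had a fold enrichment of 38.2 in a peak of 2321 bp. Cox8b (chr7, start 140900446, minus strand) had neither, with 8041 bp to the nearest H3K4me3 peak and 2720 bp to the nearest ATAC-seq peak, and its counterpart Cox8a had 35.9. Cox7a1 had both peaks, with a fold enrichment of 12.3 and −log10 q of 89.8 in a peak of 1216 bp (chr7:30183586-30184801), at percentile 11.6. Its counterpart Cox7a2 had 34.9 and −log10 q of 549 in a peak of 2643 bp.

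The testis isoforms also differed among themselves. Cox7b2 had an ATAC-seq peak of 222 bp that covers its start (chr5:71548181-71548402), while the nearest H3K4me3 peak was 108379 bp away. It was the only gene of the 91 with an ATAC-seq peak and no H3K4me3 peak, against 6.61% of all protein-coding genes. The ATAC-seq peak of Cox7b2 was narrower than the median of the ATAC-seq list (261 bp), as was that of Cox8c (226 bp). Both are lost when only peaks wider than that median are kept. Cox8c, another form of subunit 8, had the weakest and narrowest H3K4me3 peak of the 86 (chr12:102899006-102899602), 597 bp wide, of fold enrichment 2.68 and −log10 q 4.25, at percentile 0.2, and an ATAC-seq peak of 226 bp. This peak is lost when −log10 q of at least 5 is asked for. Cox6b2 had the strongest peak of the 8 (chr7:4751144-4753652), 2509 bp wide, of fold enrichment 24.7 and −log10 q 422, at percentile 33.6, and an ATAC-seq peak of 1605 bp. Its counterpart Cox6b1 had 32.7 and −log10 q of 432 in a peak of 1680 bp, so Cox6b2 had the wider peak and the lower fold enrichment of the pair, at nearly the same −log10 q.

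The isoforms of lung and low oxygen had weak H3K4me3. Cox4i2 had a peak of 1201 bp (chr2:152753696-152754896) with a fold enrichment of 5.57 and −log10 q of 21.5, beside 52.3 and 952 at Cox4i1, and an ATAC-seq peak of 990 bp that was about as wide as the 1086 bp at Cox4i1. The H3K4me3 peak of Cox4i1 also covers the starts of Gm27021 and Emc8, and its summit lay 407 bp upstream of the Cox4i1 start. Ndufa4l2, induced by hypoxia, had 2 weak peaks in the window, and neither covered the start: 1 ended 86 bp upstream (chr10:127513022-127514881, fold enrichment 5.19) and 1 began 42 bp downstream (chr10:127515009-127515324, fold enrichment 2.88). An ATAC-seq peak of 175 bp covers the start between them. Ndufa4, first assigned to complex I and now counted in complex IV, had 42.9 in a single peak of 3223 bp. That peak also covers the start of Phf14, 312 bp away on the opposite strand.

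The fifth record with no H3K4me3 peak was Cox7a2l, which helps join complexes III and IV and is broadly expressed. Its GENCODE record begins at chr17:83517330, and an H3K4me3 region of fold enrichment 39.6 (chr17:83512303-83515102) and 826 bp of open chromatin in the ATAC-seq list lie at the start of its protein-coding transcripts, beginning 2228 bp downstream of the record's 5′ end. With protein-coding transcript starts in place of the record's, Cox7a2l had both peaks, so that the genes that lack H3K4me3 under both definitions are Cox6a2, Cox7b2, Cox8b and the second Atp5o record.

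The peaks at the genes were about as wide as those of genes at large. The median width of the strongest H3K4me3 peak was 2292 bp, against 2168 bp over all genes, and the median −log10 q was 561 against 462. The peak covers the start at 84 of the 86 genes (97.7%), against 93.1% of all genes with a peak, and Ndufa4l2 and Atp5j2 were the exceptions. At Atp5j2, a membrane subunit of the synthase, the peak began 27 bp downstream. The peak reached a median of 798 bp upstream and 1364 bp downstream of the start, against 684 and 1389 bp over all genes, and its summit lay downstream at 73 genes (84.9%), against 85.1%.

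The widest peaks reached neighbouring genes. Ndufb10 had 6335 bp (chr17:24718399-24724733) with a summit 4774 bp downstream of its start, so its fold enrichment of 45.2 was measured away from the start. Ndufaf3 had 5136 bp, with a summit 2716 bp upstream, in a peak that covers the start of Dalrd3. Ndufs1 had 4917 bp together with Eef1b2, Ndufa13 had 4226 bp together with Tssk6 and Yjefn3, and Uqcrh had 4165 bp together with Lrrc41. The 5 narrowest were those of Cox8c (597 bp), Cox4i2 (1201 bp), Cox7a1 (1216 bp), Uqcrc1 (1253 bp) and Atp5mpl (1300 bp). The last 2 had fold enrichments of 39.9 and 29.0, so a narrow peak was not always a weak one.

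At 6 genes the window held 2 H3K4me3 peaks (4.38% of all genes had 2 or more): Atp5b, Atp5g1, Cox8a, Ndufa4l2, Ndufc1 and Uqcrq. At Cox8a the stronger peak (35.9) ran from 64 bp upstream to 1737 bp downstream and a weaker one (11.4) ended 166 bp upstream, with an ATAC-seq peak of 627 bp over the gap. Uqcrq had the same arrangement, with fold enrichments of 64.0 downstream and 12.5 upstream. At 16 genes the window held 2 ATAC-seq peaks (17.6%, against 17.3% of all with 2 or more), and none held more. The widest ATAC-seq peak of a gene had a median of 882 bp, against 885 bp over all genes, and the 3 widest were at Atp5j (1655 bp), Cox6b2 (1605 bp) and Uqcrh (1520 bp). An ATAC-seq peak covers the start at 80 of the 87 genes, against 88.1% of all genes with one. Atp5f1, Atp5g2, Atp5j2, Ndufa13, Ndufa5 and Ndufs4 were among the 7 where it does not.

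Many of the genes start beside another gene. A protein-coding gene on the opposite strand started within 1 kb at 33 of the 91 genes (36.3%), against 11.2% of all genes. At these 33 genes the median distance to the nearest coding start on either strand was 131 bp, and at 25 it was within 200 bp. By complex they were 14 of 34 genes in complex I, 3 of 4 in complex II, 4 of 8 in complex III, 2 of 18 in complex IV and 5 of 17 in complex V, with 5 of the 10 assembly and other genes. Several neighbours also serve mitochondria or translation. Ndufs6 starts 29 bp from the mitochondrial ribosomal gene Mrpl36 and Ndufb5 615 bp from Mrpl47, while Sdhd starts 98 bp from Timm8b, an import chaperone of the intermembrane space. Ndufa7 starts 10 bp from the ribosomal gene Rps28, Ndufs1 8 bp from the elongation factor Eef1b2, and Atp5j 700 bp from Gabpa, the ETS factor also known as nuclear respiratory factor 2.

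The neighbours went with the shape of the peaks. All 33 genes with such a neighbour had both peaks, against 96.9% with both among all genes that have such a neighbour. Of the 58 without, 53 had H3K4me3 (91.4%), against 62.5% of all genes without. The median upstream reach was 1265 bp with a neighbour and 558 bp without, and over all genes it was 1301 and 603 bp. The downstream reach was 1364 and 1362 bp. The summit lay downstream of the start at 22 of 33 genes with a neighbour (66.7%, against 58.5% of all such genes) and at 51 of the 53 without (96.2%, against 90.3%). Median fold enrichments were 38.1 and 35.9. A peak over 2 opposite starts cannot be divided between them in this list.

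**Figure D3:**
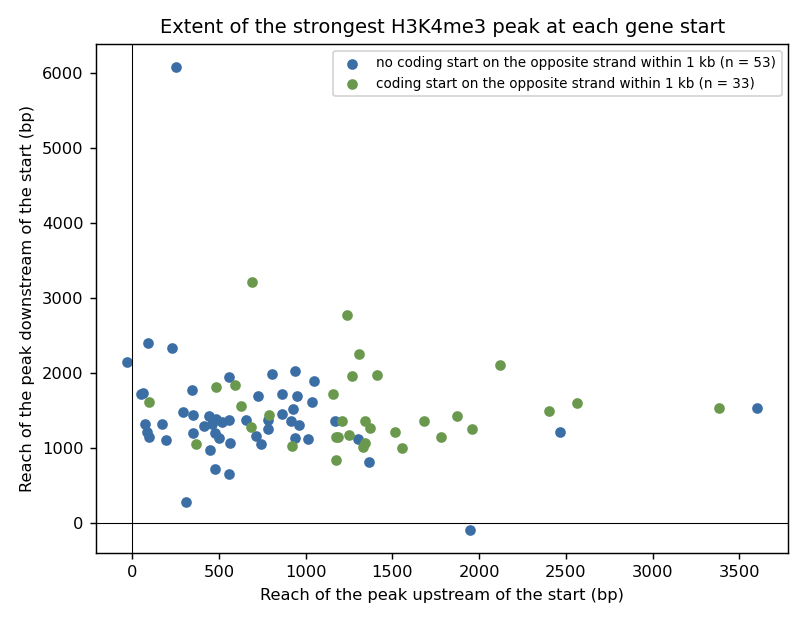
Reach of the strongest H3K4me3 peak upstream (x axis, bp) and downstream (y axis, bp) of the start of each of the 86 genes with a peak, with genes that have an opposite-strand coding start within 1 kb in green (33) and the others in blue (53). The green points lie further right (median 1265 bp against 558 bp) and at like height (1364 and 1362 bp), and the blue point at the top is Ndufb10, downstream reach 6079 bp.

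Promoter sequence was taken from RefSeq, from 250 bases before to 50 bases after the start, for the 73 of 90 symbols that matched (81.1%) and 15705 genes in all. Peaks were counted at the GENCODE start, and the RefSeq start lay within 50 bp of it for 51 of the 73. It lay 2997 bp away at Cox7a2l and 1305 bp away at Atp5g2, so sequence and peak window can differ. The CpG observed/expected ratio had a median of 0.833 over the 73 promoters and 0.614 over all, where it was 0.764 with an H3K4me3 peak and 0.169 without. The 4 tissue-restricted isoforms with a promoter entry had 0.115 (Cox8b), 0.333 (Cox7a1), 0.432 (Cox6b2) and 0.564 (Cox7b2), and the lowest among the other 69 was 0.482 (Ndufc2). The 3 lowest ratios of the 73 therefore belonged to the isoforms shown above, whereas Cox7b2, which had no H3K4me3 peak, fell among the other genes.

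**Figure D4:**
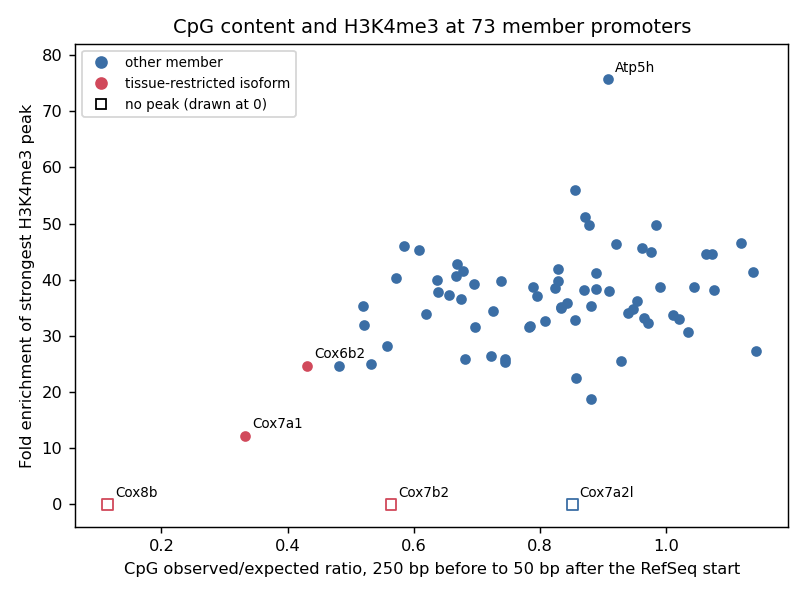
CpG observed/expected ratio of 73 promoters (x axis) against the fold enrichment of the strongest H3K4me3 peak (y axis, linear), with genes without a peak as open squares drawn at 0 and tissue-restricted isoforms in red. Cox8b, Cox7a1 and Cox6b2 hold the 3 lowest ratios (0.115 to 0.432), and Cox7b2 (0.564) has no peak in the window at a higher ratio. Cox7a2l is drawn at 0 by its GENCODE start, but its sequence was taken at a RefSeq start 2997 bp away. That RefSeq start lies inside an H3K4me3 peak of fold enrichment 39.6.

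The promoters were searched on both strands for letters that known regulators of these genes bind. GCATGCGC, the core of the nuclear respiratory factor 1 site, was in 12 promoters (16.4%), against 3.79% of all 15705. The same core with GC before it, which makes the full palindrome and is a subset, was in 7 (9.59%, against 1.41%), those of Atp5g2, Atp5k, Cox6a1, Ndufa11, Ndufaf4, Ndufaf5 and Uqcrc1. CCGGAAG, of ETS factors such as Gabpa, was in 17 (23.3%, against 12.6%), with Sdhb, Sdhd, Atp5h and Uqcrh among them. AAGATGG, of YY1, was in 11 (15.1%, against 6.42%), and AAGGTCA, of the estrogen-related receptors, in 8 (11.0%, against 3.9%). Among all promoters with an H3K4me3 peak the shares were 5.39%, 2.05%, 17.4%, 6.77% and 2.84%, in the same order. TATAAA was in 7 (9.59%), among them Cox7b2 and Cox8b, against 12.9% of all promoters and 6.56% of those with an H3K4me3 peak. None of the 4 tissue-restricted promoters held any of the other letters. A match says only that the letters are in this window.

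Other genes of the pathway were read in the same way. Of 32 assembly factors and related genes outside the symbol rule, 31 had H3K4me3 and 31 had open chromatin by ATAC-seq, with a median fold enrichment of 31.9. Cox19, an assembly factor of complex IV, lacked the first and Sdhaf1, which helps insert iron-sulphur clusters into complex II, lacked the second. The H3K4me3 peak counted for Sdhaf1 began 755 bp downstream of its start and covers the start of E130208F15Rik. Cytochrome c repeated the contrast of the isoforms: Cycs, the form of most tissues, had 28.8 in a peak of 2429 bp and Cyct, the testis form, 5.57 in a peak of 643 bp. Of 10 regulators of mitochondrial genes, 9 had both peaks, and Ppargc1a, the coactivator used in brown fat and muscle, had neither. The X-linked subunits Ndufa1, Ndufb11 and Cox7b, outside the rule, had both peaks, with fold enrichments of 28.9, 33.9 and 42.2.

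Beside 2 other groups of broadly expressed genes the oxidative phosphorylation genes had the lowest median H3K4me3 strength and width. Of 76 cytosolic ribosomal protein genes, 75 had H3K4me3 and 72 an ATAC-seq peak, with a median fold enrichment of 46.0 and a median width of 3904 bp. Of 38 proteasome subunit genes, 35 had H3K4me3 and 37 an ATAC-seq peak, with 41.6 and 2399 bp. The medians of the 86 genes were 36.6 and 2292 bp, and 37.2 and 2321 bp without the tissue-restricted isoforms. An opposite-strand neighbour was found at 19.7% of the ribosomal protein genes and 23.7% of the proteasome genes, against the 36.3% above. None of these differences was tested.

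Markers of the cell types were checked once. Over all protein-coding genes the shares were 66.4% with H3K4me3, 72.2% with an ATAC-seq peak and 65.6% with both. Of 7 embryonic stem cell markers, 6 had H3K4me3 and 7 an ATAC-seq peak, and Esrrb lacked the first at the start of its record. Fibroblast markers, which feeder cells would carry, had both peaks at 4 of 6 (66.7%), near the share of all genes. Their fold enrichments were 13.9 to 20.4, and Col3a1 and Postn had neither peak. Striated muscle markers had an H3K4me3 peak at 2 of 7 (Ckm and Actn2) and male germ cell markers at 2 of 7 (Ldhc and Tnp2, 5.30 and 2.90). The peak counted for Ckm ended 106 bp upstream of its start and covers the start of Klc3, so it may belong to that neighbour. The part of other cells in the weak peaks of the muscle and testis isoforms was not tested.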

How the data were processed

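H3K4me3 ChIP-seq and ATAC-seq of F123 embryonic stem cells (2 replicates each) were used. The PLAC-seq and input samples were not analysed here. For H3K4me3 the authors used default settings of the uniform ENCODE histone ChIP-seq workflow, and the aligner and the threshold used for it are not given in the sources used here. Its deposited columns hold the fold enrichment (a ratio), −log10 q and the summit. For ATAC-seq the authors aligned reads with bowtie 1.1.2, shifted their ends by 4 bp to allow for Tn5, called peaks with MACS2 2.1.1.20160309 and used bedtools 2.27.1 to keep those of the pooled reads that both replicates shared, and the deposited file gives positions only. The limit the authors set for these ATAC-seq calls was on the p-value, not on q, and the file gives no strength for narrow peaks. The lists carry no counts, so depth is unknown. The submitters' processing notes give mm10, the build of GENCODE M21.

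Peaks within 1 kb of gene starts were found with Python 3.11.15, numpy 2.4.6, pandas 2.3.3 and scipy 1.17.1, and plotted with matplotlib 3.10.9. The counts per gene were the same as those of bedtools 2.31.1 for 20807 of 20807 genes, and the search was tested on simulated data, where it found 142 of 142 genes given a peak. Percentiles are the share of genes with a peak whose strongest peak is weaker. Alternatives were 500 bp and 2 kb windows, the midpoint in the window, a peak over the start, transcript starts, leaving out genes with another coding start, −log10 q of at least 5 or 20, the widest 50% of the ATAC-seq peaks and structural subunits only. The members, lists and isoform classes were chosen with earlier results of these data known. Named genes were the isoforms and their counterparts, genes without a peak, the 5 strongest, weakest, widest and narrowest peaks, the 3 widest ATAC-seq peaks, core subunits and fixed pathway genes. Other genes were chosen after their values were seen: the opposite-strand neighbours, Ndufs6, Atp5j2, Atp5o, Ndufaf5, Ndufc2 and the genes listed by motif or by 2 peaks. Protein sequences were not used here, so the identity of isoform proteins was not computed, and promoters of 17 symbols were not used here. The values of 1 gene that the rule would name are not reported here.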

Additional observations from a re-analysis of the deposited data

How the results depend on the processing

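Over 10 results and 12 settings, 95 alternative values were computed, of which 86 stayed close to the reported value and 9 moved. Close meant within 1.5-fold for a count, which is a loose limit, and inside the order-statistic interval for a median. Whether any value reversed a result was not assessed. Of the 58 genes left when those with another coding start within 1 kb are set aside, 53 had H3K4me3, 54 ATAC-seq and 53 both, the median width was 2025 bp and 10 had 2 or more ATAC-seq peaks; the counts are lower because fewer genes remain. The count of genes with 2 or more ATAC-seq peaks (16) was 5 at 500 bp, 26 at 2 kb, 0 when a peak had to cover the start and 6 with the widest 50% of the peaks. Tissue-restricted isoforms with H3K4me3 numbered 4 or 5 and those with ATAC-seq 4 to 7 over the alternatives. Asking for the summit within 1 kb of the start and counting Atp5o once were chosen after seeing the data. With the summit within 1 kb, 82 genes had H3K4me3 and the median fold enrichment was 36.4. No paired analysis was possible because each list stands for both replicates, and for the same reason leaving out each replicate was not possible. The lists hold no reads, so a peak missing from a list is not evidence of no signal, and fold enrichments of neighbouring genes in 1 peak are 1 measurement.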
